A study of Mus musculus with 3 samples.

Results

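The genes described here are 43 known targets of the androgen receptor whose products are not secretory proteins of the prostate and are not enzymes of cholesterol or polyamine synthesis. They were chosen by name as known androgen-induced genes, and all 43 are among the 32594 genes listed for each library. The androgen receptor is a nuclear receptor: bound by testosterone, or more tightly by dihydrotestosterone, it enters the nucleus, binds DNA at response elements and recruits coactivators. In the prostate its best known output is the secretory program of luminal cells, but it also raises genes for kinases and phosphatases, lipid and sugar metabolism, vesicle traffic, transcription and cell shape, and these are the genes described below. Many of these genes respond to other signals too.

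The study measured single cells of whole prostate from C57BL6 mice of 12 to 15 weeks with droplet sequencing (10x Genomics). One library is labelled Srd5a2 knockout, called the knockout below, and 2 libraries are labelled Srd5a2 heterozygous, called heterozygote 1 and heterozygote 2. Srd5a2 encodes steroid 5α-reductase type 2, the enzyme that converts testosterone into dihydrotestosterone, and the heterozygotes carry a disrupted allele as well, so no wild-type prostate enters the comparison. Every tissue, of both genotypes, was digested for 2 h at 37 °C in medium with dihydrotestosterone and a rock inhibitor, so all values were read after contact with the hormone. The number of animals behind a library is not given in the sources used here. With 1 knockout library the p-values rest only on the spread between the 2 heterozygote libraries, with dispersion shared across genes. That spread may be technical, and no spread between knockouts enters the p-values.

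The deposited matrices hold raw counts of unique molecular identifiers (UMIs), 47601747 to 129015041 per library, and 8920, 4522 and 9220 barcodes were kept as cells in the knockout, heterozygote 1 and heterozygote 2. Cells were clustered without the 43 genes, and clusters were named after marker lists, hence "-like". The knockout library held 1319 luminal-like and 1813 basal-like cells, heterozygote 1 held 2490 and 729, and heterozygote 2 held 4680 and 1551. Seminal vesicle-like cells numbered 1983 in the knockout, 323 in heterozygote 1 and 479 in heterozygote 2, although the tissue is labelled prostate. The targeted gene followed the labels: fibroblast-like cells held 1 Srd5a2 UMI in the knockout, 26 in heterozygote 1 and 46 in heterozygote 2, and smooth muscle-like cells held 3, 58 and 51. Libraries shared 15 to 57 barcodes per pair.

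The 43 genes did not share a home cell type. UMIs were summed over the cells of a class in each library and scaled by the class's own UMI total (CPM, plain totals). Over the 7 classes with at least 50 cells in each library, 20 of the 43 genes were highest in the same class in 3 of 3 libraries, and these homes were spread over luminal secretory-like (3 genes), luminal proximal-like (4), basal-like (4), fibroblast-like (2), smooth muscle-like (4) and endothelial-like cells (3). None of the 43 had its home in seminal vesicle-like cells. CPM is a share of the class total, so abundant secretory RNA in a class lowers the values of its other genes. The part of this in the ranking was not tested. With macrophage-like and ionocyte-like cells added, which had 29 and 41 cells in heterozygote 1, the number with a constant home was 16 of 43. These levels are a description of the 3 libraries, with no test between classes.

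**Figure D1:**
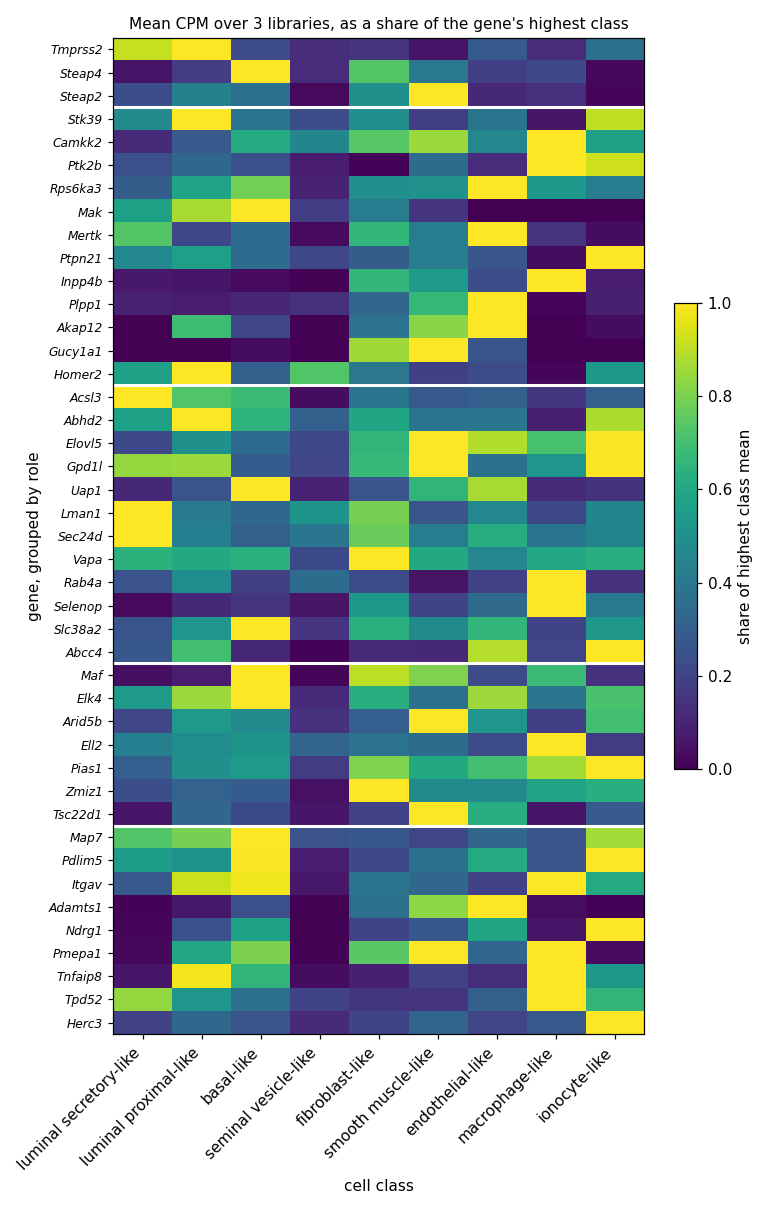
Each row is a gene, grouped by role, and each column a cell class; colour gives the mean CPM over the 3 libraries as a share of the gene's highest class mean (0 to 1). Yellow cells mark a gene's highest class and lie in 8 of the 9 columns, with none in the seminal vesicle-like column.

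The membrane protease and the metalloreductases lay in different compartments. Tmprss2, a membrane-bound serine protease, had 139 CPM in luminal secretory-like cells of the knockout, 137 in heterozygote 1 and 170 in heterozygote 2, and 145, 190 and 153 CPM in luminal proximal-like cells of the same libraries. Steap4, a metalloreductase that reduces iron and copper, had 49.9, 65.0 and 54.1 CPM in basal-like cells against 3.02, 3.22 and 3.08 CPM in luminal secretory-like cells. Steap2, another member of that family, had 17.7, 24.9 and 30.7 CPM in smooth muscle-like cells and 6.10, 4.16 and 7.23 CPM in luminal secretory-like cells. Neither the basal-like values of Steap4 nor the smooth muscle-like values of Steap2 overlapped the values in luminal secretory-like cells. The class with the next highest mean was fibroblast-like for both, reaching 49.8 CPM for Steap4 and 15.9 for Steap2. The Steap4 value was just under its lowest basal-like value.

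Among genes of metabolism and traffic, Acsl3 and Sec24d were the ones whose home was the luminal secretory-like class. Acsl3, which activates long-chain fatty acids, had 345 CPM there in the knockout, 259 in heterozygote 1 and 224 in heterozygote 2, against 190, 231 and 181 CPM in luminal proximal-like cells, so the neighbouring classes overlapped. Sec24d, a coat subunit of vesicles that leave the endoplasmic reticulum, had 141, 128 and 166 CPM in luminal secretory-like cells and 124, 88.9 and 122 CPM in fibroblast-like cells. Slc38a2, a transporter of neutral amino acids, was highest in basal-like cells, at 1322, 920 and 919 CPM, against 311, 221 and 283 CPM in luminal secretory-like cells. Selenop, the secreted carrier of selenium, had 592, 462 and 717 CPM in macrophage-like cells, 343, 236 and 365 CPM in fibroblast-like cells and 8.88, 18.7 and 19.2 CPM in luminal secretory-like cells. For Selenop the luminal secretory-like class was thus the lowest of the 9 in every library.

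Several signalling and nuclear genes were stromal or endothelial. Plpp1, a lipid phosphatase of the cell surface, had 142, 140 and 234 CPM in endothelial-like cells of the knockout, heterozygote 1 and heterozygote 2, and 9.40, 21.2 and 16.3 CPM in luminal secretory-like cells. Adamts1, a secreted metalloprotease of the matrix, had 515, 728 and 767 CPM in endothelial-like cells and 4.99, 6.97 and 6.33 CPM in luminal secretory-like cells. In smooth muscle-like cells it had a mean of 555 CPM and reached 726, so these values overlapped the endothelial-like ones. Tsc22d1, a leucine zipper regulator, had 501, 727 and 541 CPM in smooth muscle-like cells, and Arid5b, a DNA-binding chromatin factor, had 1503, 930 and 840 CPM there. Zmiz1, a coactivator of the androgen receptor, had 354, 313 and 240 CPM in fibroblast-like cells and 98.0, 65.1 and 55.7 CPM in luminal secretory-like cells. Pdlim5, an actin-associated adaptor, had 540, 694 and 669 CPM in basal-like cells and 343, 295 and 435 CPM in luminal secretory-like cells.

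Within the luminal secretory-like class the genes also differed between clusters. In 5 of the 43 genes, 1 of the 6 secretory clusters with at least 50 cells in each library lay above all values of the other clusters. Homer2, a scaffold of calcium signalling, had at least 76.3 CPM in each library in cluster 14, whose leading genes include Msmb and Defb50, and at most 33.9 CPM in any other cluster. Mertk, a receptor tyrosine kinase of engulfment, had at least 51.0 CPM in cluster 2, led by Banf2 and Ren1, and at most 45.4 elsewhere. Ptpn21, a tyrosine phosphatase, had at least 41.0 CPM in cluster 5, led by Srpx and C1s2, and at most 38.9 elsewhere. The other genes, Akap12 and Gucy1a1, were highest in cluster 3, whose cells had a median of 1879.5 UMIs against 10991 to 14148 in the other 5 clusters. Akap12 rested there on 5, 9 and 23 UMIs in the knockout, heterozygote 1 and heterozygote 2. Gucy1a1 had at least 1.51 CPM there and at most 0.916 elsewhere, near the floor. All luminal-like cells held only 5, 10 and 27 Gucy1a1 UMIs in the same libraries. In the knockout 60% of these were in cluster 1. Mertk, Ptpn21 and Gucy1a1 were named here after their values were seen.

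The main question the design poses is whether these genes changed in luminal-like cells when Srd5a2 was lost, and 41 of 43 did not pass the test. Summed luminal-like UMIs were fitted with edgeR's quasi-likelihood test over all 16834 genes tested, with Benjamini-Hochberg adjustment and a threshold of 0.05, and all values of a genotype difference below are on the log2 scale, knockout minus heterozygotes, ± standard error, beside CPM scaled by TMM factors. Of the 43 genes, 1 was higher (Akap12) and 1 was lower (Selenop) in the knockout; over all genes 323, or 1.92%, passed in either direction, 0.748% higher and 1.17% lower. The median log2 difference was -0.08 for the 43 genes and -0.03 for all genes tested, and 31 of the 43 lay within 0.5 of zero. The knockout value was above both heterozygotes for 7 of the 43 genes and below both for 15, while 32.4% of all genes were above and 35.8% below. For the other 21 genes the knockout lay between the heterozygotes. In counts simulated from the luminal-like sums, the test called 30% of genes raised 2-fold and 14.6% of genes lowered 2-fold. A gene that did not pass was thus not shown to be unchanged. Different clusters held most luminal-like cells in each library: cluster 2 in the knockout (28.6% of cells), cluster 1 in heterozygote 1 (28.0%) and cluster 3 in heterozygote 2 (21.8%). Clusters 19 and 22 held no knockout cell, against 25 and 18 cells in heterozygote 1 and 388 and 341 in heterozygote 2. Seminal vesicle markers summed to 22524 CPM in luminal-like cells of the knockout, 4686 in heterozygote 1 and 16578 in heterozygote 2, and their part in the calls was not tested.

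**Figure D2:**
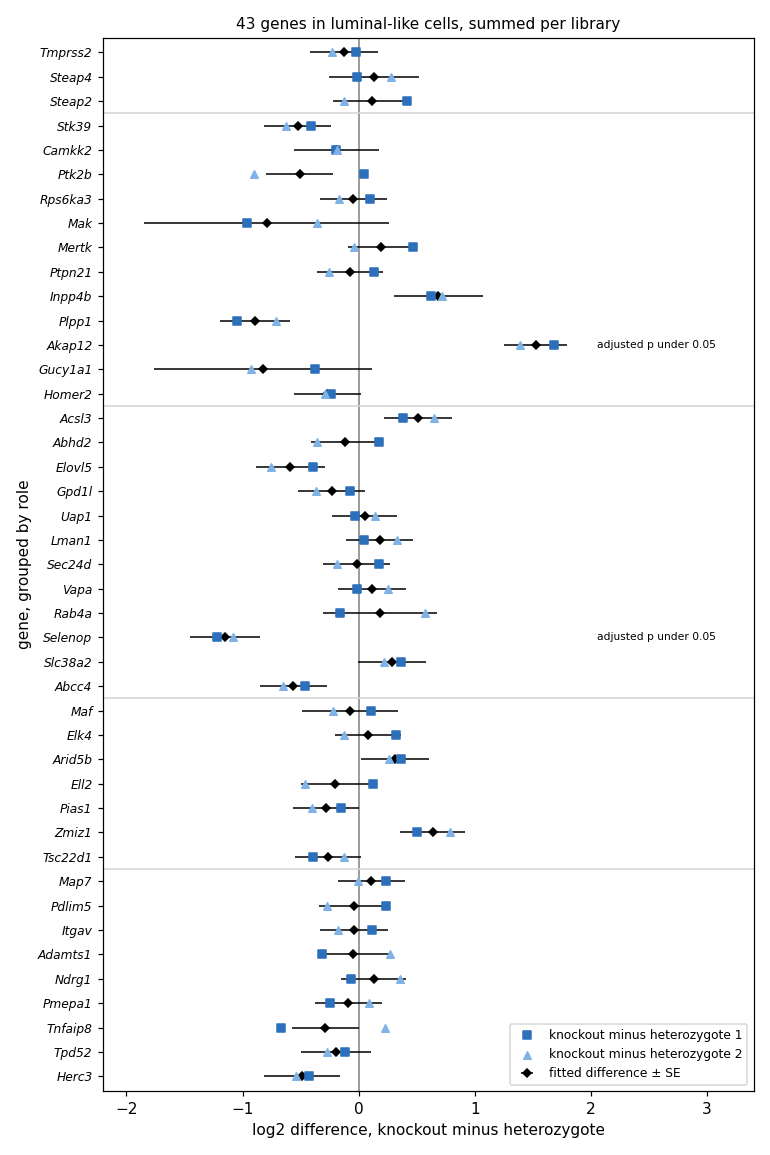
Each row is 1 of the 43 genes, grouped by role; the black diamond and bar give the fitted log2 difference between knockout and heterozygotes in luminal-like cells ± standard error, the square the difference from heterozygote 1 and the triangle that from heterozygote 2. Most genes lie around 0 and only Akap12 (1.53) and Selenop (-1.15) passed the adjusted threshold.

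Selenop fell in the knockout. It lies at chr15:3268547-3280508 (GRCm38, plus strand) and encodes the plasma selenoprotein that carries selenium to other tissues. Luminal-like cells held 206 UMIs in the knockout, 702 in heterozygote 1 and 1115 in heterozygote 2, or 11.2, 26.2 and 23.9 TMM-scaled CPM, so the knockout was lowest and did not overlap the heterozygotes. The log2 difference was -1.15 ± 0.30 (edgeR adjusted p = 0.0106), -1.22 against heterozygote 1 and -1.08 against heterozygote 2. It stayed negative in all 12 alternative settings, from -1.30 to -0.93, and passed in 9. It did not pass with DESeq2 (adjusted p = 0.0959), in proximal-like cells alone or after subtraction of free RNA, a setting in which no gene at all passed. The knockout was below both heterozygotes in 5 of the 6 secretory clusters: in cluster 2, for example, Selenop had 8.27 CPM in the knockout, 17.8 in heterozygote 1 and 14 in heterozygote 2, and in cluster 13 of the proximal-like cells it had 51.4, 90.0 and 97.3. No single luminal cluster passed for Selenop (edgeR adjusted p from 0.153 to 1.00). Summed macrophage markers in luminal-like cells were 25.9 CPM in the knockout, 23.6 in heterozygote 1 and 28.9 in heterozygote 2. Barcodes under 500 genes, a measure of free RNA, held 26.1 CPM of Selenop in the knockout, above its luminal level there. They held 20.2 CPM in heterozygote 2, below its luminal level there, while heterozygote 1 had only 2 such barcodes, with no Selenop UMI. The subtraction of free RNA was uneven, removing 8.83% of luminal-like UMIs in the knockout, 1.34% in heterozygote 1 and 39.4% in heterozygote 2.

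The rise of Akap12 rested on few cells. Akap12 encodes a scaffold that anchors protein kinases A and C near the membrane. Luminal-like cells held 773 UMIs in the knockout, 351 in heterozygote 1 and 753 in heterozygote 2, or 42.2, 13.1 and 16.1 TMM-scaled CPM, and the log2 difference was 1.53 ± 0.27 (edgeR adjusted p = 5.93e-06). Of these UMIs, 92.5% in the knockout, 75.8% in heterozygote 1 and 75% in heterozygote 2 came from cluster 32, a cluster of 16, 21 and 24 cells led by Crisp1 and Wfdc18 that counted as proximal-like on 4 markers. These cells made up 1.21%, 0.843% and 0.513% of luminal-like cells, and within them Akap12 had 3353, 1723 and 1794 CPM. In secretory-like cells alone the difference was -0.30, in luminal clusters with at least 50 cells in each library it was -0.08, and at a coarser clustering it was -0.17, and none of these passed. In proximal-like cells alone it was 2.21 (edgeR adjusted p = 0.281) and after subtraction of free RNA 1.82 (edgeR adjusted p = 0.892), also without passing. Luminal secretory-like cells held 1.86 CPM of Akap12 in the knockout, 1.94 in heterozygote 1 and 2.74 in heterozygote 2.

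**Figure D3:**
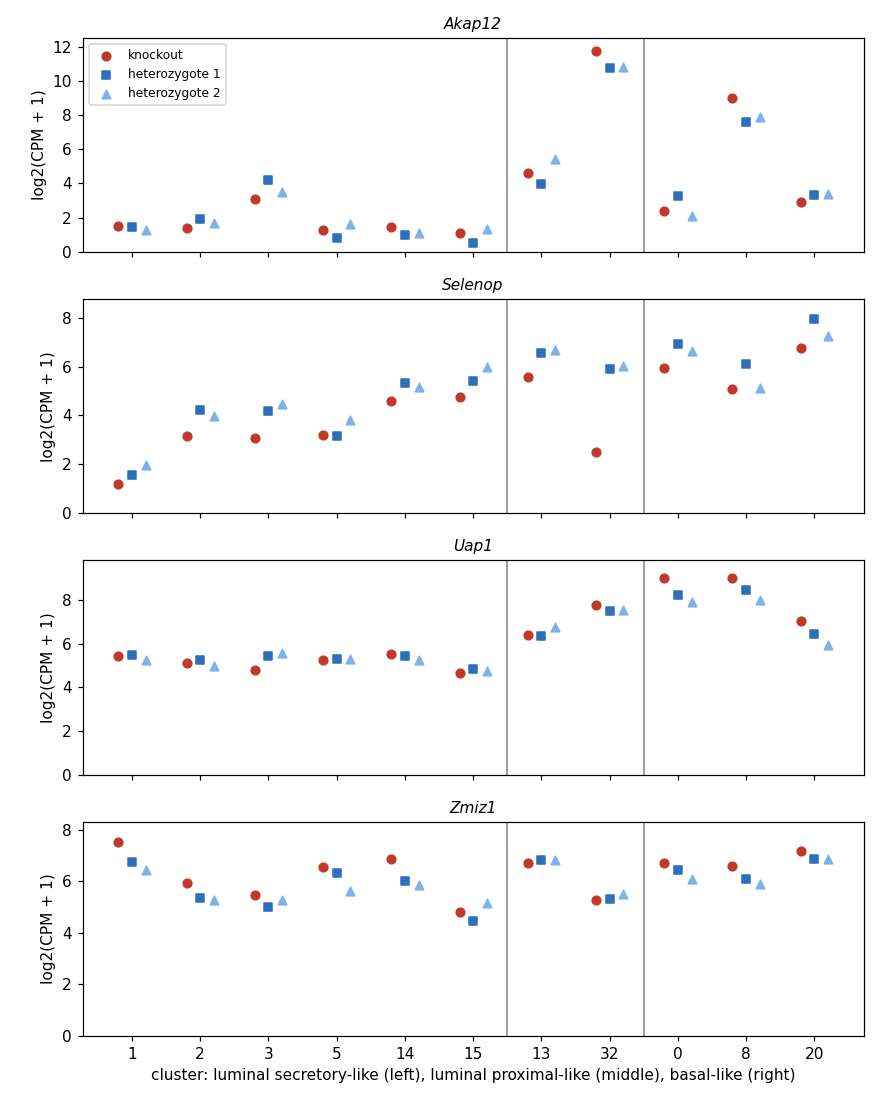
Levels of Akap12, Selenop, Uap1 and Zmiz1 as log2(CPM + 1, plain totals) by cluster, with 1 point per library; vertical lines part the luminal secretory-like clusters (left), the proximal-like clusters (middle) and the basal-like clusters (right). Akap12 is high in clusters 32 and 8, Selenop is lowest in the knockout in most clusters, Uap1 is higher in the knockout in the 3 basal-like clusters and Zmiz1 in most secretory-like ones.

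By role, the median luminal-like differences lay between -0.23 and 0.11. Among the 12 kinases, phosphatases and signalling scaffolds, 1 was higher, none was lower and the median was -0.23, with values from -0.89 to 1.53. The lowest was Plpp1, with 9.77 TMM-scaled CPM in the knockout, 20.3 in heterozygote 1 and 16.0 in heterozygote 2, which did not pass (-0.89 ± 0.30, edgeR adjusted p = 0.110). Among the 12 genes of metabolism, transport and traffic, Selenop alone passed and the median was 0.02; Acsl3 stood at 338 TMM-scaled CPM in the knockout, 259 in heterozygote 1 and 215 in heterozygote 2 (0.51 ± 0.29, edgeR adjusted p = 0.710). The 7 genes of transcription and chromatin had a median of -0.08 and no call, with Zmiz1 at the upper end at 98.9 TMM-scaled CPM in the knockout, 69.9 in heterozygote 1 and 57.4 in heterozygote 2 (0.64 ± 0.28, edgeR adjusted p = 0.387). The 9 genes of cytoskeleton, adhesion, matrix and growth control ranged from -0.49 to 0.13, and Tmprss2, Steap4 and Steap2 from -0.13 to 0.13.

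The 12 genes with the highest luminal counts did not pass either. Tpd52, a vesicle-associated protein of secretory epithelia, had 332 TMM-scaled CPM in the knockout, 360 in heterozygote 1 and 401 in heterozygote 2, and Pdlim5 had 348, 295 and 420. Vapa, an anchor at contacts of the endoplasmic reticulum, had 216, 218 and 182, and Lman1, a cargo receptor between the endoplasmic reticulum and the Golgi, had 219, 213 and 174. Tmprss2 had 141, 143 and 165, Ell2, an elongation factor of RNA polymerase II, had 133, 122 and 183, and Itgav, the integrin αV chain, had 142, 131 and 161. Sec24d had 136, 121 and 155, and Abhd2, a lipid hydrolase, had 127, 112 and 162. Arid5b had 302, 234 and 252, and Slc38a2 had 338, 264 and 291. In Pdlim5, Vapa, Ell2, Itgav, Sec24d and Abhd2 the knockout lay between the heterozygotes.

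Fitted one by one, secretory clusters gave single calls that differed from the class. In cluster 1, led by Gpx3 and Tcaf3, Plpp1 was lower, with 8.68 TMM-scaled CPM in the knockout, 28.2 in heterozygote 1 and 15.5 in heterozygote 2 (-1.32 ± 0.38, edgeR adjusted p = 0.0436), against 2.45% of all genes called there. With median-ratio size factors this call was lost, as was that of Tnfaip8 below. In cluster 14, led by Msmb and Defb50, Zmiz1 was higher, with 125 TMM-scaled CPM in the knockout, 62.5 in heterozygote 1 and 55.0 in heterozygote 2 (1.09 ± 0.29, edgeR adjusted p = 0.0238), 1 call among 40 tested, against 1.1% of all genes. Zmiz1 lay above both heterozygotes in 5 of the 6 secretory clusters and in 9 of the 11 clusters fitted, where 32.8% to 36.6% of all genes did so in a given cluster. Clusters 2, 3, 5 and 15 gave 0 calls with edgeR, where 1.93%, 0.795%, 2.28% and 0.843% of all genes passed, and 5, 2, 3 and 1 of the genes had an unadjusted p under 0.05. In proximal-like cluster 13 Adamts1 was higher, with 78.1 TMM-scaled CPM in the knockout, 44.6 in heterozygote 1 and 26.2 in heterozygote 2 (1.10 ± 0.31, edgeR adjusted p = 0.0347; 2.46% of genes called). In seminal vesicle-like cluster 4, where 2.54% of all genes and 2 of 38 tested here passed, Steap4 had 20.1 TMM-scaled CPM in the knockout, 7.56 in heterozygote 1 and 9.33 in heterozygote 2 (1.23 ± 0.30, edgeR adjusted p = 0.00426). Tnfaip8, an inhibitor of apoptosis, had 34.0, 15.8 and 19.2 there (0.95 ± 0.27, edgeR adjusted p = 0.0253).

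Basal-like cells showed more calls than luminal-like cells, both among these genes and among all genes tested. Of the 41 genes tested there, 2 were higher (Akap12 and Uap1) and 2 were lower (Homer2 and Selenop), where 4.5% of 12149 genes passed in either direction, 2.35% higher and 2.15% lower. The median was 0.12 for these genes and -0.01 for all genes, and 22 lay above and 12 below both heterozygotes, against 34.8% and 34.7% of all genes. Summed stress genes were 10402 CPM in basal-like cells of the knockout, 9309 in heterozygote 1 and 8912 in heterozygote 2, and their part in these counts was not tested. All 7 genes of transcription and chromatin lay above both heterozygotes (0.09 to 0.50), and none of them passed. Seminal vesicle markers summed to 60383 CPM in basal-like cells of the knockout, 10924 in heterozygote 1 and 11012 in heterozygote 2, and luminal secretory markers to 2158, 4683 and 13077 CPM, and the part of this RNA in the calls was not tested.

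Uap1 was higher in basal-like cells in all 9 alternatives and passed in 8. Uap1 makes UDP-N-acetylglucosamine, the sugar donor for protein glycosylation, and lies at chr1:170141938-170174957 on the minus strand. Basal-like cells had 517 TMM-scaled CPM in the knockout, 281 in heterozygote 1 and 213 in heterozygote 2, without overlap (1.07 ± 0.25, edgeR adjusted p = 0.00265). The call held in cluster 0, led by Krt17 and Krt14, with 547, 290 and 244 TMM-scaled CPM (1.04 ± 0.25, edgeR adjusted p = 0.00211; 3.5% of genes called), and in cluster 8, led by Tmem171 and Egfl6, with 595, 353 and 254 (0.98 ± 0.28, edgeR adjusted p = 0.0125; 4.86% of genes called). Of the 43 genes, 2 of 39 tested passed in cluster 0 and 4 of 32 in cluster 8. In cluster 20, led by Scpep1 and Trp63, where 1.12% of genes passed and none of the 43 did (edgeR, 3 at an unadjusted p under 0.05), Uap1 had 143, 83.5 and 63.5. In luminal-like cells Uap1 stood at 42.5, 43.5 and 38.5 TMM-scaled CPM (0.05 ± 0.28, edgeR adjusted p = 1.00).

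The promoters of the genes were read for the hexamer AGAACA or its complement TGTTCT, the core to which the androgen receptor and the related glucocorticoid receptor bind, in RefSeq windows of GRCm38.p6 from 250 bases before to 50 bases after the transcription start. Windows were found for 32 of the 43 genes, 48 in all, and 3 of them (6.25%) held the hexamer on either strand, against 19.0% of all 32851 windows. The inverted repeat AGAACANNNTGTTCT, which contains the hexamer, was in none of the 48 and in 3 of all windows. The 3 windows with the hexamer belong to Uap1 (chr1:170174915-170175214, minus strand, hexamer 12 bases before the start), Tsc22d1 (chr14:76503976-76504275, plus strand, 137 bases before it) and Abcc4 (chr14:118676882-118677181, minus strand, 123 bases before it), and they are shown because the others lack it; capitals mark the hexamer, and the match is a description of the letters alone.
Uap1: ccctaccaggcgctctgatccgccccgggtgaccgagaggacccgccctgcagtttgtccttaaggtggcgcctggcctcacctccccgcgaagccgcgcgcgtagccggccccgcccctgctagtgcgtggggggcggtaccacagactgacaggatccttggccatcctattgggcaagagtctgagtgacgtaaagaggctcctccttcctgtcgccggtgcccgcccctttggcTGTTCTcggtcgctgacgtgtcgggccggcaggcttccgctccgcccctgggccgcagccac
Tsc22d1: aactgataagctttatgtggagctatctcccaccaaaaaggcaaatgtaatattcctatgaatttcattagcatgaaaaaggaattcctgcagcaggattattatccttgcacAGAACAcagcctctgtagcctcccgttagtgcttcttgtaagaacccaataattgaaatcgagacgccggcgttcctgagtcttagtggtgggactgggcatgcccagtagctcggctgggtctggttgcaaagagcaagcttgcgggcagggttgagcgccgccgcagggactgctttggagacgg
Abcc4: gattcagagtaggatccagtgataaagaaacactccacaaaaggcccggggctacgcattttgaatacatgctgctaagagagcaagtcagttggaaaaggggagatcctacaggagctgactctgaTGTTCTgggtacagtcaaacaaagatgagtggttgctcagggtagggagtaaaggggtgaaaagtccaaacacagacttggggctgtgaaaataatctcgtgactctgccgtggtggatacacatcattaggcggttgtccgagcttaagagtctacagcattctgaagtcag
The windows of Tsc22d1 and Abcc4 lie at starts inside the genes, which span chr14:76414961-76507765 and chr14:118482692-118706219. The Uap1 window covers the outermost start of its gene. Of Uap1, Tsc22d1 and Abcc4 only Uap1 passed in any class. Tsc22d1 in basal-like cells had 157 TMM-scaled CPM in the knockout, 130 in heterozygote 1 and 116 in heterozygote 2 (0.35 ± 0.23, edgeR adjusted p = 0.585), and Abcc4, an efflux pump for nucleotides and drugs, had 18.3, 25.3 and 28.8 in luminal-like cells (-0.56 ± 0.29, edgeR adjusted p = 0.597). Basal-like cells were the 1 class of 5 with Tsc22d1 above both heterozygotes, and it lay below both in 3. Abcc4 lay above both in 1 of 4 classes tested and below both in 3. Uap1 lay above both in 2 of 5 classes and below both in 2.

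Akap12 in basal-like cells had 195 TMM-scaled CPM in the knockout, 36.5 in heterozygote 1 and 29.3 in heterozygote 2 (2.58 ± 0.22, edgeR adjusted p = 8.30e-18). Cluster 8 held 98.4% of its basal-like UMIs in the knockout, 81.0% in heterozygote 1 and 86.9% in heterozygote 2, and this cluster made up 32.5%, 14.1% and 9.80% of basal-like cells. Without cluster 8 the difference was -0.30. Within cluster 8 Akap12 was still higher, at 582 TMM-scaled CPM in the knockout, 188 in heterozygote 1 and 232 in heterozygote 2 (1.47 ± 0.27, edgeR adjusted p = 9.08e-06). Acsl3, at 249, 128 and 101 TMM-scaled CPM (1.13 ± 0.27, edgeR adjusted p = 0.00179), and Maf, a basic leucine zipper transcription factor, at 54.3, 25.6 and 23.4 (1.15 ± 0.37, edgeR adjusted p = 0.0395), were also higher in that cluster. Summed stress genes in cluster 8 were 11110 CPM in the knockout, 8633 in heterozygote 1 and 8396 in heterozygote 2, and their part in these calls was not tested.

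Homer2 and Selenop were lower in basal-like cells. Homer2 had 6.17 TMM-scaled CPM in the knockout, 11.7 in heterozygote 1 and 15.4 in heterozygote 2 (-1.16 ± 0.34, edgeR adjusted p = 0.0232), with 51, 32 and 72 UMIs behind these values, and it passed in 3 of 9 alternatives. In cluster 0 alone, where 3.5% of all genes passed, Homer2 was also called, with TMM and with median-ratio size factors. Selenop had 58.3, 118 and 98.1 TMM-scaled CPM (-0.88 ± 0.24, edgeR adjusted p = 0.00943), the same direction as in luminal-like cells, and it did not pass with DESeq2 (adjusted p = 0.565). Fibroblast markers in basal-like cells summed to 815 CPM in the knockout, 1601 in heterozygote 1 and 1383 in heterozygote 2, and their part in the Selenop difference was not tested. Without cluster 8, where 92 of 11693 genes passed, 0 of the genes passed in basal-like cells with edgeR and 6 had an unadjusted p under 0.05, with Uap1 at 1.05 (adjusted p = 0.0868), Homer2 at -1.22 (0.151) and Selenop at -0.72 (0.264). Plpp1 had 24.9 TMM-scaled CPM in basal-like cells of the knockout, 16.0 in heterozygote 1 and 15.0 in heterozygote 2, and its genotype difference in basal-like cells exceeded that in luminal-like cells by 1.55 (edgeR interaction test with library as a block, adjusted p = 0.0182; 0.547% of genes called). Seminal vesicle-like cells held 66.4 CPM of Plpp1 in the knockout, 4.71 in heterozygote 1 and 3.27 in heterozygote 2, and the part of seminal vesicle RNA in the basal-like value was not tested. In cluster 4, which holds seminal vesicle-like cells of all 3 libraries, Plpp1 had 4.90, 2.81 and 3.38 TMM-scaled CPM and did not pass (edgeR adjusted p = 0.743).

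**Figure D4:**
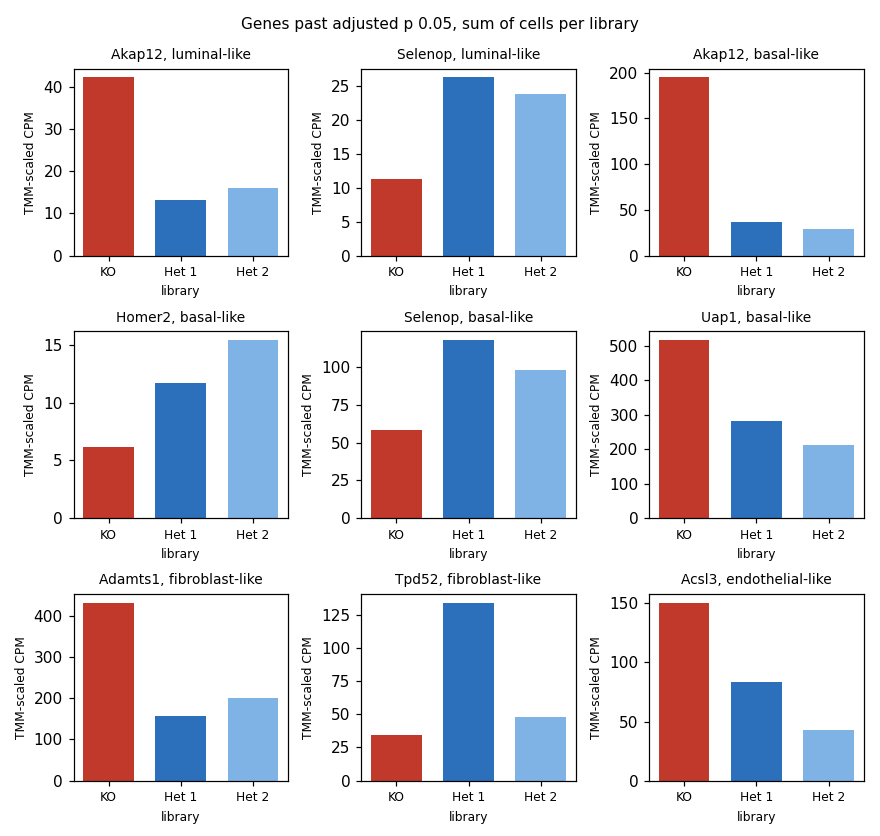
TMM-scaled CPM in the knockout (KO), heterozygote 1 (Het 1) and heterozygote 2 (Het 2) for the 9 combinations of gene and cell class past an edgeR adjusted p of 0.05; each bar is the sum over the cells of 1 library, so bars carry no replicate error. The knockout bar lies outside the range of the heterozygote bars in all 9 panels, for Tpd52 in fibroblast-like cells at 34.4 against 134 and 47.8.

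In fibroblast-like cells, which numbered 530 in the knockout, 69 in heterozygote 1 and 225 in heterozygote 2, 36 of the 43 genes could be tested. Adamts1 was higher, with 432 TMM-scaled CPM in the knockout, 157 in heterozygote 1 and 201 in heterozygote 2 (1.26 ± 0.37, edgeR adjusted p = 0.0304), and Tpd52 was lower, with 34.4, 134 and 47.8 (-1.31 ± 0.40, edgeR adjusted p = 0.0403), where 3.11% of 7212 genes passed, 1.01% higher and 2.09% lower. The Tpd52 difference was -1.87 against heterozygote 1 and -0.44 against heterozygote 2, on 45, 35 and 20 UMIs. Luminal secretory markers in fibroblast-like cells summed to 2371 CPM in the knockout, 22710 in heterozygote 1 and 19963 in heterozygote 2, and their part in the Tpd52 difference was not tested. The median of the tested genes was 0.28, against -0.02 for all genes, with 20 above and 8 below both heterozygotes where 34.1% and 34.3% of all genes were. Summed stress genes in these cells were 12733 CPM in the knockout, 10298 in heterozygote 1 and 9854 in heterozygote 2, with 10 of 15 above both heterozygotes, and their part in the shift was not tested. Slc38a2 stood at 1133 TMM-scaled CPM in the knockout, 479 in heterozygote 1 and 521 in heterozygote 2 and did not pass (1.18 ± 0.46, edgeR adjusted p = 0.167). The genotype difference of Selenop in fibroblast-like cells exceeded that in luminal-like cells by 1.59 (edgeR interaction test, adjusted p = 0.0117; 0.695% of genes called), with 377, 234 and 385 TMM-scaled CPM in fibroblast-like cells. Stk39, a kinase that regulates ion cotransporters, had 25.3, 53.6 and 64.5 TMM-scaled CPM and did not pass (-1.24 ± 0.43, edgeR adjusted p = 0.102), but did with doublets kept, at resolution 0.5 and with another clustering seed. Neither call passed with DESeq2, which gave 0 of the genes with 2 at an unadjusted p under 0.05.

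In smooth muscle-like cells 0 of 41 tested genes passed with edgeR or with DESeq2, and 5 and 2 of the genes had an unadjusted p under 0.05; 0.127% of 9424 genes passed with edgeR, 0.106% higher and 0.0212% lower. These were 12 genes, against 229 with median-ratio size factors, where 0 of the 41 passed too. The median was -0.10 against -0.01 for all genes, with 10 above and 16 below both heterozygotes where 35% and 34% of all genes were. Arid5b had 1634 TMM-scaled CPM in the knockout, 892 in heterozygote 1 and 841 in heterozygote 2 (0.92 ± 0.23, edgeR adjusted p = 0.330), and Slc38a2 had 753, 355 and 454 (0.90 ± 0.25, edgeR adjusted p = 0.354). Akap12 had 300 TMM-scaled CPM in smooth muscle-like cells of the knockout, 414 in heterozygote 1 and 259 in heterozygote 2, and its genotype difference there differed from that in luminal-like cells by -1.58 (edgeR interaction test, adjusted p = 0.0296; 0.413% of genes called). The luminal-like value in this comparison comes mostly from the few cells of cluster 32. Arid5b and Slc38a2 passed in 3 of the alternatives, with doublets kept, with a stricter cell filter and with no filter on low counts.

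In endothelial-like cells 30 genes could be tested and 1 was higher, Acsl3, where 1.88% of 5898 genes passed, 1.05% higher and 0.831% lower. It had 151 TMM-scaled CPM in the knockout, 83.3 in heterozygote 1 and 43.2 in heterozygote 2 (1.23 ± 0.37, edgeR adjusted p = 0.0465), on 136, 28 and 13 UMIs, and it passed in 1 of 8 alternatives. The median was 0.05 against -0.02 for all genes, and 12 genes lay above and 9 below both heterozygotes, where 31.5% and 32.3% of all genes did. For Akap12, with 420, 452 and 373 TMM-scaled CPM, the genotype difference differed from that in luminal-like cells by -1.46 (edgeR interaction test, adjusted p = 0.00484; 0.347% of genes called). Here too the luminal-like value comes mostly from cluster 32. Seminal vesicle markers summed to 174138 CPM in these cells of the knockout, 110458 in heterozygote 1 and 32859 in heterozygote 2, and their part in the result was not tested.

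Arid5b, Slc38a2 and Zmiz1 lay above both heterozygotes in all 5 classes, without passing in any of them. Seminal vesicle-like cells are not among the 5. There Slc38a2 had 133, 163 and 181 CPM and Zmiz1 9.44, 18.5 and 13.8 CPM, both lowest in the knockout. Most of these cells lie in clusters with nearly no heterozygote cells, so the libraries differ there in the cells summed. In the 11 single clusters fitted, seminal vesicle-like cluster 4 among them, Slc38a2 lay above both heterozygotes in 10 and below both in 0. Zmiz1 lay above both in 9 and below both in 1. Arid5b lay above both in 7 and below both in 3. In a given cluster 32.8% to 36.6% of all genes lay above both and 32.9% to 38.9% below. Arid5b, Slc38a2 and Zmiz1 were the 3 genes, of 29 tested in all 5 classes, above both heterozygotes in each. Of all 5113 genes so tested, 4.56% lay above both in each. No gene of the 29 lay below both heterozygotes in all 5, where 2.93% of genes did. The classes share the 3 libraries and are not independent. Summed stress genes in luminal-like cells were 4782 CPM in the knockout, 5971 in heterozygote 1 and 4346 in heterozygote 2.

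The wider androgen pathway in luminal-like cells was described with 57 other genes, among them secretory genes and genes of cholesterol and polyamine synthesis. Of the 56 tested, none was higher and 2 were lower, where 0.748% and 1.17% of all genes were, and their median was -0.13. Fkbp5, a chaperone of steroid receptors and a common readout of their activity, had 32 TMM-scaled CPM in the knockout, 81.2 in heterozygote 1 and 64.5 in heterozygote 2 (-1.19 ± 0.30, edgeR adjusted p = 0.00684). Pbsn, the probasin gene, had 18991, 16940 and 21098 TMM-scaled CPM in the same libraries and did not pass. In basal-like cells 1 of 54 was higher and 11 were lower, where 2.35% and 2.15% of all genes were, in the same cells in which the luminal secretory marker sum was lowest in the knockout.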

How the data were processed

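Groups follow the genotype labels, and the sources used here do not give the chemistry, the cell calling or the animals behind each library. The deposited matrices hold raw UMI counts; the submitters' processing notes name Cell Ranger 3.1.0 and mm10. The 43 genes and all lists were chosen with earlier results of these data known. A barcode was a cell if it had 500 genes or more and no more than 15% mitochondrial UMIs. Doublets were scored within each library against simulated ones, at an expected rate of 0.8% per 1000 cells. Ties at the cut-off were called too: 9.97%, 4.11% and 11.8% of scored barcodes in the knockout, heterozygote 1 and heterozygote 2, against 9.77%, 3.95% and 9.80% expected. This removed 1063, 196 and 1367 barcodes in the same libraries. Clustering used 2000 variable genes, 30 components, 15 neighbours and Leiden resolution 1.0 (igraph 0.11.9), without the 43 genes, mitochondrial genes and 70 genes abundant in barcodes under 500 genes. A named cluster needs at least 3 markers at a log2 fold of 1.0 in 25% of cells; clusters with over 25% seminal vesicle UMIs, other than seminal vesicle-like ones, stayed unnamed, a rule set after the clusters were seen. Sums per class with at least 50 cells in each library, with luminal clusters pooled, were fitted with edgeR 4.0.16 (filterByExpr, TMM, quasi-likelihood, 1 residual degree of freedom), tested on simulated data, with DESeq2 1.42.0 as an alternative. Seminal vesicle-like cells were fitted by cluster, because clusters 10 and 11, most of them, hold nearly no heterozygote cells. Plain totals in place of TMM factors shift log2 differences by -0.29 to -0.03 in the 5 classes. For single heterozygotes, log2 CPM had a prior count of 2. Named genes are those past the threshold, those changed 2-fold against both heterozygotes, the 12 with most luminal UMIs, and 2 per other class by ratio to the remaining classes; Abcc4, Mak, Maf and Tnfaip8 and the genes stated in the text were added after their values were seen. Coordinates are from GENCODE vM21, which matched 42 of the 43 genes; promoters are RefSeq's. Some results on genes outside the 43 are not reported here.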

Additional observations from a re-analysis of the deposited data

Results flagged for a closer look

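Genotype differences were compared between cell classes, each other class with luminal-like cells; all values are log2, knockout minus heterozygotes. Tested by interaction with library as a block (edgeR, adjusted over all genes), the difference of Plpp1 in basal-like cells exceeded that in luminal-like cells by 1.55 (adjusted p = 0.0182), and that of Selenop in fibroblast-like cells exceeded that in luminal-like cells by 1.59 (adjusted p = 0.0117). The difference of Akap12 in smooth muscle-like cells minus that in luminal-like cells was -1.58 (adjusted p = 0.0296), and in endothelial-like cells it was -1.46 (adjusted p = 0.00484); the luminal value comes mostly from cluster 32.

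For genes that had passed in a class, the cases below are those where the knockout lay on one side of both heterozygotes in one class and on the other side in another, with no test between those classes. Adamts1, higher in fibroblast-like cells at 1.26, stood at -0.49 in smooth muscle-like and -0.25 in endothelial-like cells. Uap1, higher in basal-like cells at 1.07, stood at -0.30 in smooth muscle-like and -0.32 in endothelial-like cells. Tpd52, lower in fibroblast-like cells at -1.31, stood at 0.17 in endothelial-like cells. Homer2, lower in basal-like cells at -1.16, stood at 1.27 in fibroblast-like and 1.28 in smooth muscle-like cells, on 33 and 43 UMIs in the knockout and 3 to 6 in each heterozygote.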

How the results depend on the processing

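The count of the 43 genes past the threshold moved with the setting. In luminal-like cells (2 as reported) it was 1 with DESeq2, 1 at Leiden resolution 0.5, 1 in secretory clusters alone, 0 in proximal clusters alone, 0 after subtraction of free RNA and 1 in clusters with 50 cells in each library. In basal-like cells (4) it was 2 with DESeq2, 0 without cluster 8, and 3 with median-ratio size factors, doublets kept, the looser filter or resolution 0.5. In fibroblast-like cells (2) it was 1 with no filter on low counts and 0 with DESeq2, a looser or a stricter cell filter, and 3, with Stk39 added, with doublets kept, at resolution 0.5 and with another seed. In smooth muscle-like cells (0) it was 2 with no filter, with doublets kept and with the stricter filter; over all genes the count of 12 became 362, 462 and 323 there, 229 with median-ratio size factors and 41 with DESeq2. Over all genes the luminal count of 323 became 113 with DESeq2, 181 with the looser filter, 9 in proximal clusters and 0 after subtraction of free RNA; the basal count of 547 became 64 with DESeq2, 320 with the looser filter, 359 at resolution 0.5, 363 with median-ratio size factors and 92 without cluster 8; the fibroblast count of 224 became 32 with DESeq2, 114 with the looser and 118 with the stricter filter; the endothelial count of 111 became 11 with DESeq2 and 19 with the stricter filter. The count of the 43 genes in endothelial-like cells (1) was 0 in every alternative but median-ratio size factors. In secretory-like and seminal vesicle-like single clusters (4) that count was 2 with median-ratio size factors, which lost Plpp1 in cluster 1 and Tnfaip8 in cluster 4; the 7 calls in basal-like and proximal-like clusters were 7 again. Akap12 reversed to -0.17, -0.30 and -0.082 in luminal-like cells (resolution 0.5, secretory clusters, clusters with 50 cells) and to -0.30 in basal-like cells without cluster 8; the cause was not tested. The clusters with 50 cells, the fit without cluster 8, the interaction tests and the basal-like and proximal-like single clusters were chosen after seeing the data. Leaving out either heterozygote leaves 1 library against 1 and no test; Selenop then stood at -1.08 and -1.22 in luminal-like cells. No paired analysis was possible because the knockout has 1 library. Macrophage-like and ionocyte-like cells were too few in heterozygote 1 for the fits, and depth limits the low genes: Mak and Gucy1a1 had 4 and 5 luminal UMIs in the knockout.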
